A study of Mus musculus with 18 samples.

Results

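The mouse microRNAs miR-6236, miR-6240 and miR-6243 were each listed in 2 forms in small RNA sequencing data of BV-2 microglial cells, as a hairpin precursor (mir-6236, mir-6240, mir-6243) and as a mature miRNA. Their rows were taken by name, which gave 6 of 2134 rows, 3 of 855 hairpin rows and 3 of 1279 mature rows. The 3 were chosen by the share of reads on their hairpin rows in these samples, which was high and varied widely, so their levels are given below as a description. Where fits across all features call a member, the call is printed beside the share of features called and nothing is read from it. BV-2 is an immortalised mouse microglial line, and all groups were cultures of this line. The 18 samples formed 6 groups of 3: untreated cells (Ctrl), LPS at 100 ng/ml for 4 h (LPS), CBD at 10 μM (CBD), THC at 10 μM (THC), and each cannabinoid given 2 h before LPS (CBD_LPS and THC_LPS), with 6 h of cannabinoid in all. LPS, a bacterial cell wall component, activates microglia through Toll-like receptor 4, and cannabidiol (CBD) and tetrahydrocannabinol (THC) are the main cannabinoids of Cannabis, which were dissolved in ethanol. The labels number the samples 22 to 39, with 1 sample of each group in 22 to 27, 28 to 33 and 34 to 39, and give no culture, day or batch, so the spread between the samples of a group may be technical.

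A miRNA is transcribed as part of a longer RNA that folds back on itself into a hairpin. Drosha trims this precursor, Dicer cuts out a short duplex, and 1 strand is kept as the mature miRNA in an Argonaute protein, where its bases 2 to 8, the seed, pair with target mRNAs. In small RNA libraries from most tissues the reads of a processed miRNA therefore fall mainly on the mature strands, and reads elsewhere on the hairpin are few. miR-6236, miR-6240 and miR-6243 are late, high-numbered entries of the miRNA registry, and no role of theirs in microglia is given here.

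Sequences were found in RefSeq (build GRCm38.p6) for 3 of the 6 rows. They are shown because the reads of the 3 miRNAs fell mostly on the hairpin rows. The hairpin of mir-6240 shows how much sequence lies outside the mature stretch. Where on the hairpin the reads lay is not known. Capitals mark the seed in the mature miRNAs and the mature stretch in the hairpin.
miR-6236: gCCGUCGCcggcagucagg
miR-6240: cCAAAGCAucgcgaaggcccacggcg
mir-6240: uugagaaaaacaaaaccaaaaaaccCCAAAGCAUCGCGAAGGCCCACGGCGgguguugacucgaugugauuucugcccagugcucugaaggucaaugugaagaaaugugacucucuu

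miR-6236 had 19 bases and lay at chr9:110281353-110281371 on the plus strand. Its GC content was 78.95%, higher than that of 98.8% of the 1679 mature miRNAs in the table, and its seed was found in no other of them. The gene Mir6236 covered chr9:110281287-110281409 (GRCm38, plus strand, 123 bases) and overlapped no other annotated gene, the nearest being the lincRNA Gm42775 at 7543 bases. miR-6240 had 26 bases and a GC content of 69.2%. It took bases 26 to 51 of its hairpin of 117 bases at chr5:114851948-114852064 on the plus strand, which also overlapped no other gene, with the protein-coding gene 4930519G04Rik 1600 bases away. The seed of miR-6240 was shared by 1 other miRNA, miR-330-3p, which stood at 37.3 to 89.8 CPM (reads per 1000000 of the scaled library) over the 18 samples against 52.6 to 991 CPM for miR-6240.

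The hairpin of mir-6240 folded weakly. Its minimum free energy by RNAfold was -24.7 kcal/mol, or -0.211 kcal/mol per base, against a median of -0.406 over 1005 mouse hairpins, and 1.39% of them folded more weakly per base. The fold had 1 terminal loop, as did 94.5% of the hairpins, and 19 of the 26 mature bases were paired. Exact matches of the whole sequences were searched on both strands in 141767 annotated mouse transcripts. The hairpin of mir-6240 and the mature sequences matched their own genes and no other. Matches of a part or with mismatches, and sequence outside these transcripts, were not searched. Whether the reads came from these genes was therefore not tested. On the same strand, no run of 18 bases was shared with another miRNA of the table. There miR-6236 and mir-6240 had at most 4 bases in a row in common, so neither sequence was a copy of the other.

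The samples held 442718 to 1057147 reads, with a median of 773271. Reads could be recovered from the deposited values, and 3 reads were worth 2.98 to 6.38 CPM. The libraries numbered 22 to 27 stood apart from the others of their groups. Chi-square per degree of freedom was taken over features above a minimum of reads in the pair, where 1 is sampling noise. It was 41.3 to 98.6 in each pair of samples of a group that held a library numbered 22 to 27. In the pairs numbered 28 to 39 it was 3.04 to 9.73, apart from Ctrl_28 and Ctrl_34 at 51.6. Group differences are therefore also given for the numbers 28 to 39 alone. The miRNAs of myeloid cells were present in every sample, with miR-21a-5p at 14844 to 44087 CPM, miR-142-5p at 7254 to 12346 CPM and miR-223-3p at 48.5 to 178 CPM. Markers of other cells were near 0, with at most 2 reads of the neuronal miR-124-3p, 3 of the erythroid miR-451a, 3 of the muscle miR-133a-3p and 1 of the liver miR-122-5p in any sample, and 2 to 9 reads of the neuronal miR-9-5p.

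The 3 hairpin rows were among the most abundant hairpins of the cells. They took 267743 of the 13670564 reads, or 1.96%, and their mature rows 18305 reads, or 0.134%. By mean share mmu-mir-6243 was 6th of the 855 hairpin rows (0.757% of reads), mmu-mir-6236 was 7th (0.596%) and mmu-mir-6240 was 8th (0.512%), where mmu marks the mouse and the values are not corrected for length. These are of the order of miR-27a-3p (0.693%) and miR-103-3p (0.633%), which are counted on their mature rows. The highest row of all was miR-92a-3p, at 13.4% of reads, and mir-5099, the highest hairpin, took 2.22%. In single samples the 3 hairpins were 2.32% to 31% of the reads of all 332 rows numbered 5000 and above.

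The summed share of the 3 hairpins ranged from 0.151% to 4.55% of a sample's reads, a 30.1-fold range. In Ctrl it was 0.204% in sample 22, 3.81% in sample 28 and 2.41% in sample 34. In CBD it was 1.67% in sample 24, 0.160% in sample 30 and 0.151% in sample 36. Each of these 2 groups thus held samples more than 1 order of magnitude apart, Ctrl with 1 low sample and CBD with 2. In THC the share was 4.55% in sample 25, 2.77% in sample 31 and 1.80% in sample 37. In LPS it was 1.91% in sample 23, 1.68% in sample 29 and 1.84% in sample 35, the narrowest range of the 6 groups. In CBD_LPS it was 2.78% in sample 26, 1.74% in sample 32 and 1.20% in sample 38, and in THC_LPS it was 0.361% in sample 27, 2.10% in sample 33 and 2.43% in sample 39, where sample 27 was low. The 95% binomial intervals (Clopper-Pearson) of these shares were at most 0.0487 percentage points on either side and cover counting error only.

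**Figure D1:**
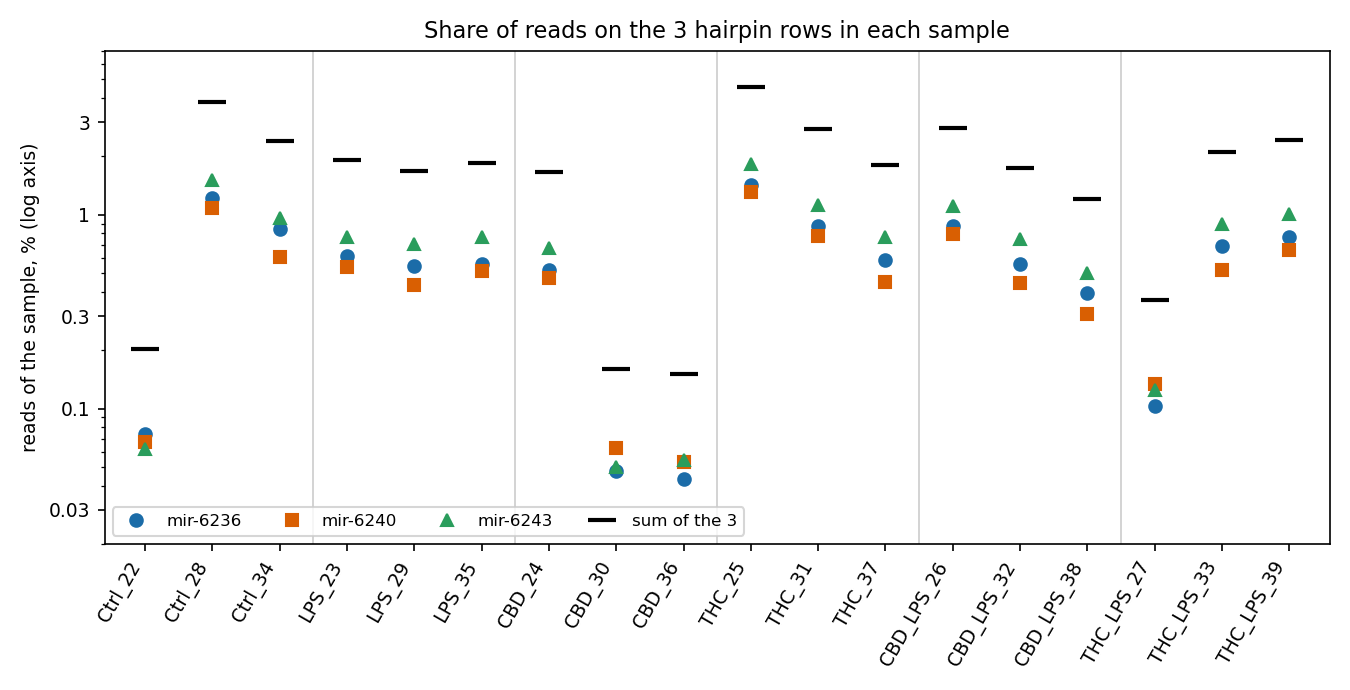
Circles (mir-6236), squares (mir-6240) and triangles (mir-6243) give the share of each sample's reads, and bars their sum, in % on a log axis, for the 18 samples arranged by group. Ctrl_22, CBD_30, CBD_36 and THC_LPS_27 lie at or under a summed share of 0.361%, and the other 14 samples at or above 1.20%.

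The samples fell into 2 sets with a gap between them. 4 samples, Ctrl_22, THC_LPS_27, CBD_30 and CBD_36, had 0.151% to 0.361% of their reads on the 3 hairpins, and the other 14 had 1.20% to 4.55%. The gap was 3.31-fold, or 1.73 on the log2 scale, against 0.83 for the next largest step between neighbouring samples. Low samples occurred in each run of title numbers, 2 in 22 to 27, 1 in 28 to 33 and 1 in 34 to 39, and in 3 of the 6 groups. They held 442718 to 660003 reads in all (median 540814) against 595482 to 1057147 (median 810464) in the 14. The ranges overlapped, but Ctrl_22, THC_LPS_27 and CBD_30 had the fewest reads of the 18 samples. Low share and low depth thus went together across the 2 sets, and the part of depth in the low shares was not tested.

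Among the 91 rows with a mean share of at least 0.1%, the 3 hairpins had the 3 widest ranges over samples. Their highest share was 36.3 times the lowest for mir-6243, 32.8 times for mir-6236 and 24.7 times for mir-6240, where the median row had 1.87. The next row was miR-155-5p at 18.9, a miRNA that LPS induces through NF-κB.

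mir-6243, the most abundant of the 3, had a share of 0.0617%, 1.52% and 0.964% in Ctrl samples 22, 28 and 34. In CBD samples 24, 30 and 36 it had 0.676%, 0.050% and 0.0545%. The low samples stood far below the rest in each group. In THC it had 1.82%, 1.12% and 0.769%, and in LPS 0.762%, 0.702% and 0.763%. In CBD_LPS it had 1.11%, 0.745% and 0.497%, and in THC_LPS 0.125%, 0.890% and 1.01%. Its rank among all rows went from 13th in THC_25 to 122nd in CBD_30.

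mir-6236 had a share of 0.0743%, 1.21% and 0.843% in Ctrl samples 22, 28 and 34, and of 0.520%, 0.0474% and 0.0435% in CBD samples 24, 30 and 36. In THC it had 1.43%, 0.877% and 0.583%, and in LPS 0.614%, 0.544% and 0.559%. The 3 LPS samples lay inside the range of the Ctrl samples. In CBD_LPS mir-6236 had 0.876%, 0.557% and 0.393%, and in THC_LPS 0.103%, 0.688% and 0.767%.

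mir-6240 had a share of 0.0675%, 1.08% and 0.604% in Ctrl samples 22, 28 and 34, and of 0.472%, 0.0626% and 0.0532% in CBD samples 24, 30 and 36. In THC it had 1.31%, 0.773% and 0.447%, and in LPS 0.534%, 0.432% and 0.514%. Ctrl_22, CBD_30 and CBD_36 were low, as for mir-6243 and mir-6236. In CBD_LPS it had 0.798%, 0.441% and 0.306%, and in THC_LPS 0.133%, 0.519% and 0.658%.

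The 3 hairpins kept nearly fixed proportions in the 14 samples above the gap and other proportions in the 4 below it. In the 14, mir-6243 had the most reads, mir-6236 the next and mir-6240 the fewest, and the ratio of mir-6243 to mir-6240 reads was 1.38 to 1.72. In the 4 it was 0.913 in Ctrl_22, 0.940 in THC_LPS_27, 0.799 in CBD_30 and 1.03 in CBD_36. mir-6240 made up 33.2% to 39.1% of the summed reads in the 4, with 299 to 719 reads, and 24.8% to 28.8% in the 14. The order of the 3 in the 14 was thus found in none of the 4. These ratios are not corrected for length and were not tested, since the sets were formed from the same reads.

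**Figure D2:**
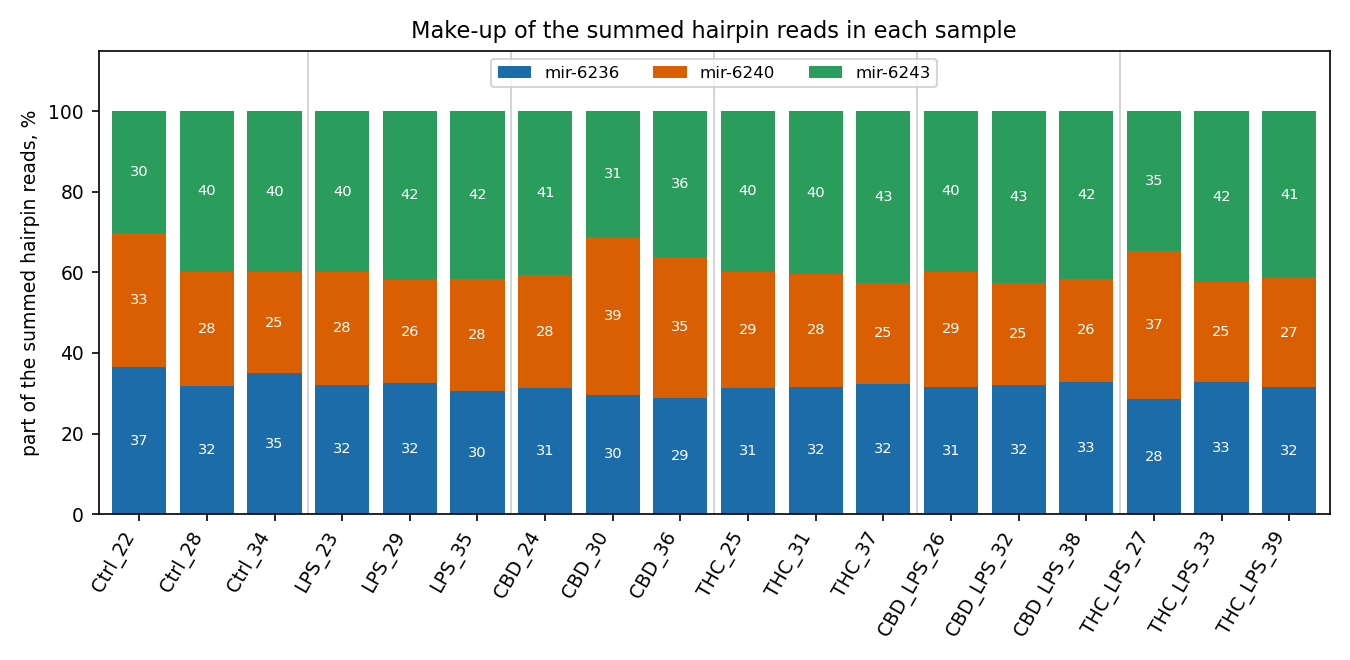
Reads of each hairpin in % of the summed reads of the 3, stacked, for the 18 samples arranged by group. The part of mir-6240 is 33.2% to 39.1% in Ctrl_22, CBD_30, CBD_36 and THC_LPS_27 and 24.8% to 28.8% in the other samples.

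The reads of the 3 miRNAs lay almost wholly on the hairpin rows. The mature rows held 1.21% of the reads of miR-6236 (1044 mature and 85561 hairpin reads), 8.20% of those of miR-6243 (9745 and 109132) and 9.33% of those of miR-6240 (7516 and 73050). For 177 other miRNAs with at least 1000 reads the median was 95.5%, with 139 over 50% and 24 under 10%. Per sample the mature part was 0.538% to 1.67% for miR-6236, 6.54% to 9.14% for miR-6243 and 7.15% to 14.5% for miR-6240, so it stayed low at every level. The mature rows were low in the same samples as the hairpin rows. miR-6236 had 3 reads in Ctrl_22, THC_LPS_27 and CBD_30 and 4 in CBD_36, and 28 to 173 in the other samples, so its mature part rests on few reads in the 4.

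**Figure D3:**
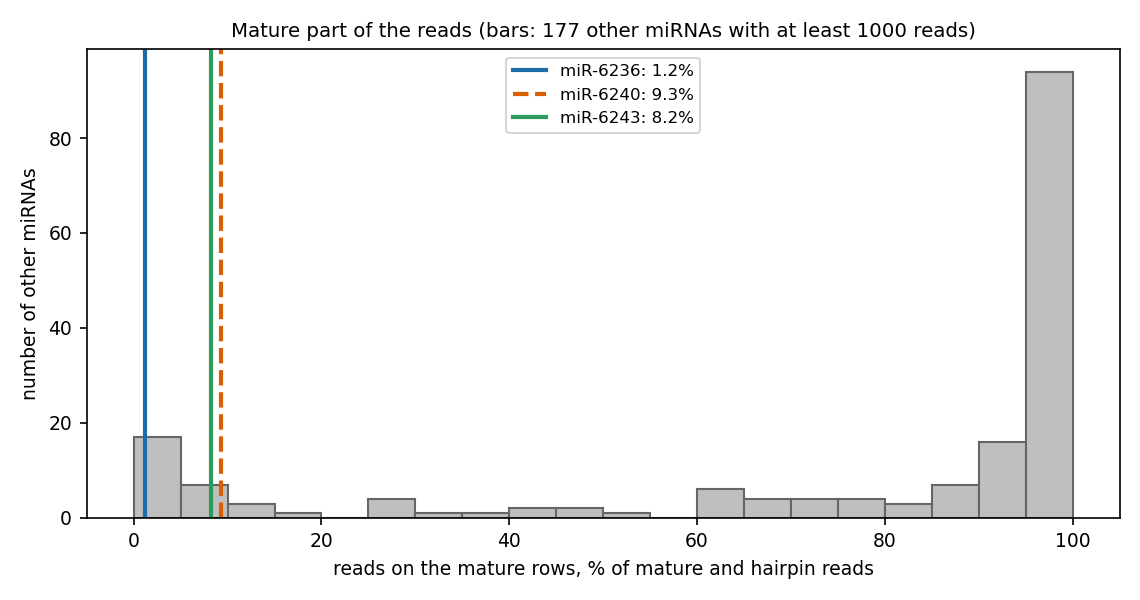
Reads on the mature rows in % of mature and hairpin reads over the 18 samples, as a histogram of 177 other miRNAs with at least 1000 reads, with a line for each of the 3. The lines are at 1.21% for miR-6236, 9.33% for miR-6240 and 8.20% for miR-6243, and the median of the others is 95.5%.

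The comparisons of the treatments with control asked what LPS and the cannabinoids, alone or together, did to the miRNAs of microglia. For the 3 hairpins the group means of the summed share were ordered THC at 3.04% ± 1.40 (SD, n = 3), Ctrl at 2.14% ± 1.82, CBD_LPS at 1.91% ± 0.805, LPS at 1.81% ± 0.119, THC_LPS at 1.63% ± 1.11 and CBD at 0.660% ± 0.873. Each group overlapped its neighbours in this order, so no neighbouring pair differed beyond its spread. Groups farther apart did not all overlap. The CBD samples, at 0.151% to 1.67%, lay below the LPS samples, at 1.68% to 1.91%, and the THC samples, at 1.80% to 4.55%. The step from CBD to LPS was within counting error. The binomial intervals were 1.636% to 1.700% for CBD_24 and 1.651% to 1.706% for LPS_29, and overlapped. How many other features separated these groups was not counted. The separation was not tested, since the shares on the hairpin rows chose the members. The SD of Ctrl and CBD was near or above their mean, and that of LPS was the smallest. As these are bulk samples, fewer cells that make a miRNA and less of it per cell cannot be told apart.

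In CBD against Ctrl the difference of the group means of log2(summed CPM + 1) was -1.80 (SE 1.15). The 3 hairpins had log2 fold changes of -2.0 (SE 0.97) for mir-6236, -1.55 (SE 0.88) for mir-6240 and -1.82 (SE 1.05) for mir-6243. None of the 3 was called by limma at a p of at most 0.005 and at least 1.5-fold, where 1.61% of the 1363 tested features were. The median log2 fold change of all features was 0.00. CBD_24 lay between Ctrl_22 and Ctrl_34, so the groups overlapped. The difference was set by single samples, being -3.10 without Ctrl_22, -2.86 without CBD_24 and -0.93 without Ctrl_28. Without Ctrl_22 limma called 3 of the 3 hairpins lower in CBD, where 4.48% of the features were called, and without CBD_24 it called mir-6236, where 2.64% were. These samples were left out after their levels had been seen, and the calls rest on the levels that chose the members.

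In LPS against Ctrl the log2 difference of the summed level was 0.71 (SE 1.15). The 3 hairpins had log2 fold changes of 0.59 for mir-6236, 0.63 for mir-6240 and 0.88 for mir-6243, against a median of 0.11 over all features. None was called, where 1.54% of the features were. All 3 LPS samples lay between Ctrl_22 and Ctrl_34. The sign turned with the measure, as the ratio of the mean CPM values was 0.922, and the log2 difference without Ctrl_22 was -0.59.

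In THC against Ctrl the log2 difference was 1.19 (SE 1.15), with 1.07 for mir-6236, 1.11 for mir-6240 and 1.36 for mir-6243, against a median of 0.08 over all features. None was called, where 0.44% of the features were. The ratio of the mean CPM values was 1.33, and the log2 difference without Ctrl_22 was -0.12. The THC samples, at 18797 to 35453 CPM, overlapped the Ctrl samples, at 1916 to 38817 CPM.

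The samples given a cannabinoid before LPS lay within the range of Ctrl. In CBD_LPS against Ctrl the log2 difference was 0.67 (SE 1.15) and in THC_LPS against Ctrl it was 0.15 (SE 1.15). None of the 3 hairpins was called in either, where 1.39% and 1.83% of the features were. Without Ctrl_22 these differences were -0.64 and -1.15. The 5 comparisons with Ctrl share its 3 samples, and with them Ctrl_22.

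Against LPS alone the samples given a cannabinoid overlapped the LPS samples. In CBD_LPS against LPS the log2 difference was -0.04 (SE 1.15), with -0.02 for mir-6236, -0.08 for mir-6240 and -0.03 for mir-6243. In THC_LPS against LPS it was -0.56 (SE 1.15), and 0.39 without THC_LPS_27. None of the 3 hairpins was called in either comparison, where 0.22% of the features were called in each. In all 7 comparisons the quasi-likelihood test of edgeR on the recovered reads also called none of the 3, where it called 1.25% of the features in LPS, CBD and CBD_LPS, 0.147% in THC and 1.32% in THC_LPS against Ctrl, and 0.22% in CBD_LPS and 0.147% in THC_LPS against LPS. DESeq2 called none of the 3, where it called 1.47% in LPS, 1.03% in CBD, 0% in THC, 1.39% in CBD_LPS and 1.1% in THC_LPS against Ctrl, and 0.367% in CBD_LPS and 0.0734% in THC_LPS against LPS.

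Of the low samples Ctrl_22 and THC_LPS_27 have title numbers under 28, and CBD_30 and CBD_36 have not. Among the 12 samples numbered 28 to 39 the log2 difference of CBD against Ctrl was -4.17 (SE 0.34), with -4.36 for mir-6236, -3.69 for mir-6240 and -4.41 for mir-6243, and limma called 3 of the 3 lower, where 11.2% of the features were called, 127 of them lower. The group then held CBD_30 and CBD_36, both low, against Ctrl_28 and Ctrl_34. mir-6236 was also called lower in CBD_LPS against Ctrl, with a log2 fold change of -0.87, where 3.89% of the features were called. In the other 5 comparisons none of the 3 was called, where the features called were 2.71% in LPS, 0.954% in THC and 2.05% in THC_LPS against Ctrl, and 0.293% in CBD_LPS and 0.147% in THC_LPS against LPS. In the 14 samples above the gap the difference of CBD against Ctrl was -0.96 (SE 0.47), with CBD_24 as the only CBD sample.

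**Figure D4:**
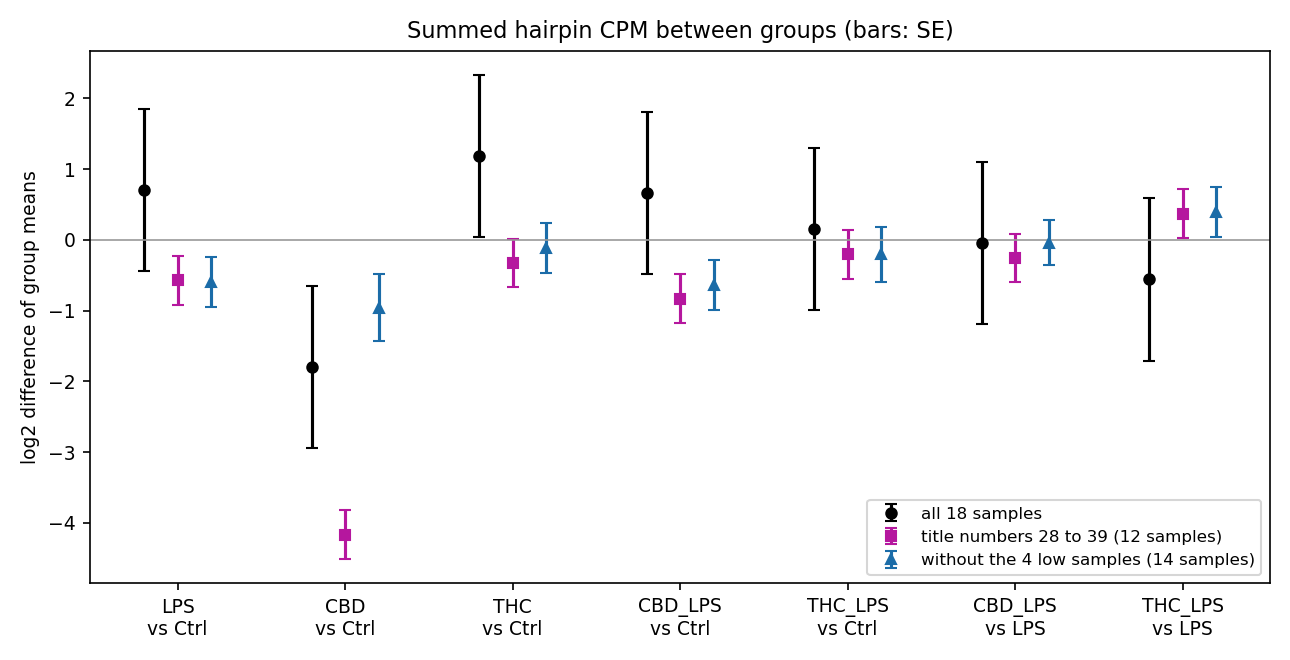
Log2 difference of the group means of the summed hairpin CPM in 7 comparisons, with SE as bars, over all 18 samples (circles), title numbers 28 to 39 (squares) and the 14 samples above the gap (triangles). The difference of CBD against Ctrl is -1.80, -4.17 and -0.96, and those of LPS and THC against Ctrl are above 0 over all samples and below 0 in the other 2 sets.

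Rows with nearby numbers were read far less. 10 rows with numbers from 6237 to 6244 were listed besides the members. mir-6241 had a mean share of 0.0332% and its mature row miR-6241 0.0521%, mir-6239 had 0.0112% and miR-6239 0.0178%, and the others were under 0.01%. Of the 9 rows tested limma called none higher or lower in any of the 7 comparisons, and 2 had an unadjusted p under 0.05 in CBD against Ctrl and 0 in the others. Of all 1363 features, 125 had such a p in CBD against Ctrl, and 32 to 86 in the other comparisons. The median log2 fold change of the 9 tested rows in CBD against Ctrl was -1.54, where the median of all features was 0.00. Unlike the members, miR-6241 and miR-6239 had more reads on their mature rows (7433 and 2535) than on their hairpin rows (4772 and 1520).

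The members varied together. Over the 18 samples the Pearson correlation between hairpins was 0.992 to 0.997, and 0.980 to 0.994 within the 14 samples above the gap. For each miRNA its mature row followed its hairpin row, with 0.968 for miR-6236, 0.980 for miR-6240 and 0.997 for miR-6243. These points share their libraries and depth, and the correlations are descriptions.

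Other rows followed the summed share of the 3 hairpins almost as closely. Of 655 rows with at least 100 reads, 50 had a Pearson correlation of at least 0.9 over the 18 samples (30 hairpin and 20 mature rows) and 15 of them also within the 14, while the median row had 0.03 over the 18 and 0.22 within the 14. The 8 most alike were miR-6241 (0.994), miR-1199-3p (0.993), mir-6241 (0.989), mir-184 (0.984), miR-205-3p (0.981), mir-680-2 (0.980), mir-6361 (0.975) and miR-5105 (0.974). Within the 14 samples these correlations were 0.807 to 0.993, lowest for mir-184 and highest for miR-6241. Correlations over the 18 samples carry the gap between the sets of low and other samples, which those within the 14 do not.

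Several of these rows were almost empty in the 4 low samples. miR-205-3p had 0 reads in each of the 4 and 20 to 85 in the 14, and mir-6361 had 0 reads in Ctrl_22, CBD_30 and CBD_36, 1 in THC_LPS_27 and 106 to 308 in the 14. mir-184 had 0 reads in 3 of them and 1 in THC_LPS_27, and 14 to 50 in the 14. miR-6241, by contrast, kept 38 reads in Ctrl_22, 57 in THC_LPS_27, 21 in CBD_30 and 26 in CBD_36, against 289 to 1003. A count of 0 allows up to 3 reads, for counting error only.

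Measures that used no read of the 6 rows were set against the summed share within the 14 samples above the gap. A correlation over the 18 samples would carry the gap between the 2 sets, so none was computed for these measures. The share of hairpin rows among all other reads rose with the summed share, with Pearson's r = 0.806 (permutation p = 0.00086, adjusted p = 0.00258 over 3 relations) and Spearman's rho = 0.873 (permutation p = 0.00014, adjusted p = 0.00042). Without Ctrl_28 and THC_25, the samples farthest from the median, r was 0.760 (permutation test, adjusted p = 0.0108). The other hairpin rows include abundant ones that followed the summed share themselves, such as mir-5105 and mir-5109. Within the 14 their r was 0.964 and 0.966. How far the relation restates such rows was not tested, and the permutations took no account of the treatment groups. The number of other features detected in 441000 reads also rose, with r = 0.741 (permutation p = 0.00364, adjusted p = 0.00546) and rho = 0.635 (permutation p = 0.0175, adjusted p = 0.0263), but without Ctrl_28 and THC_25 r was 0.584 (permutation test, adjusted p = 0.0651), so that this relation rests on those samples as a pair. Within the 10 of the 14 samples numbered 28 to 39, which leave out THC_25 and keep Ctrl_28, r was 0.733 for the hairpin share (permutation test, adjusted p = 0.0275) and 0.821 for the detected features (permutation test, adjusted p = 0.0128). Total reads gave r = -0.334 (permutation p = 0.247, adjusted p = 0.247) and rho = -0.156 (permutation p = 0.596, adjusted p = 0.596). The 3 runs of title numbers held 4, 5 and 5 of the 14 samples, too few for a value within each.

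In the 4 low samples the hairpin rows took 9.49% to 10.5% of the other reads, against 9.79% to 13.5% in the 14, and 1010 to 1074 other features were detected in 441000 reads against 1043 to 1321. The low samples were thus at the lower end of both measures but overlapped the rest, while their shares of the 3 hairpins did not.

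**Figure D5:**
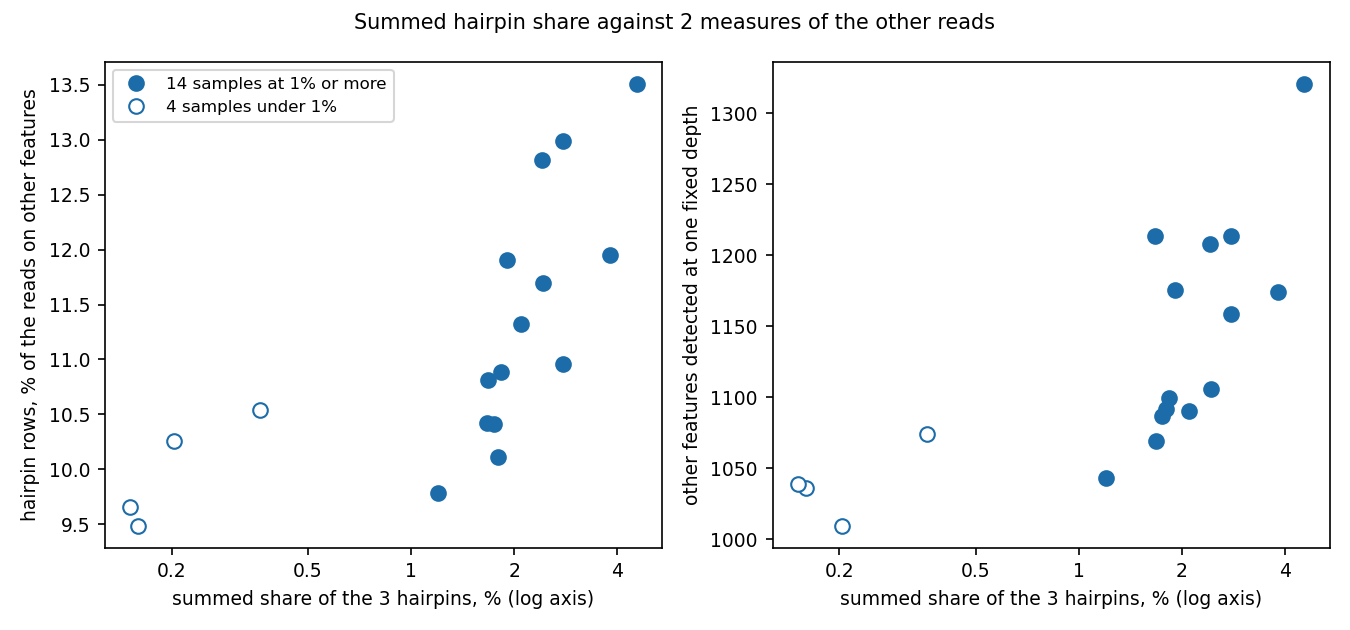
Share of hairpin rows among the reads of all other features in % (left) and number of other features detected in 441000 reads (right) against the summed share of the 3 hairpins in % (log axis), with 14 samples above the gap as filled and 4 below it as open circles. Within the 14, Pearson's r is 0.806 on the left and 0.741 on the right.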

How the data were processed

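The 18 small RNA libraries of BV-2 cells fell into 6 groups of 3 by their labels. By the study's methods the authors aligned reads with BWA to mouse miRBase, with at most 10 mappings per read, and counted reads per known miRNA. The version of miRBase used there, and how a read with several mappings was counted, are not given in the sources used here. The values the authors deposited are CPM on library sizes scaled by TMM. In samples whose scaled values sum to over 1000000 the same deposited quantity was recorded as a signal. Reads were recovered by dividing by the value of 1 read, which gave whole reads for 100% of values (tolerance 0.001), and TMM factors from these reads returned the CPM to a relative deviation of 4.86e-10. Names with mir- were read as hairpins and those with miR- as mature miRNAs. Share is reads over a sample's sum.

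limma 3.58.1 with a mean-variance trend (R 4.3.3) was fitted to log2(CPM + 1) with 6 groups over 1363 features with at least 10 reads, and features were called at an unadjusted p of at most 0.005 and at least 1.5-fold. Fold changes of low rows are understated on this scale. The summed level was compared by the same 6-group linear model, with no test, since the levels chose the members. Relations used 2-sided permutation tests with 100000 resamples and Benjamini-Hochberg adjustment over 3 relations. The reads of all 6 rows, not of the 3 hairpins alone as first planned, were left out of the second measure. Because the samples formed 2 sets, these relations were not computed over the 18 samples. Correlations between members and the likeness were, as descriptions. Likeness was Pearson's r with the summed log2 share, on log2(x + 1), where x is reads per 1000000 reads off the 6 rows. The text names the 6 rows, the 8 rows most and 4 least alike, neighbours in number at a mean share of at least 0.01%, and marker miRNAs. miR-142-5p was taken for the marker miR-142a-5p, which is not listed under that name. Other rows (mir-5099, mir-5109, mir-5115, miR-92a-3p, miR-27a-3p, miR-103-3p, miR-155-5p, miR-330-3p and the hairpins with the lowest mature part) are named for rank, range, likeness or seed. The members and lists were chosen with earlier results of these data known.

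Folds were computed with RNAfold 2.7.2. Sequences were those of RefSeq, and gene positions those of GENCODE M21 on GRCm38. No coordinate was taken from the deposited files, which hold none. Scripts were tested on simulated data. edgeR 4.0.16 and DESeq2 1.42.0 on recovered reads were alternatives. Each replicate of a group was counted as its own sample. Replicate pairs differed by more than sampling noise (chi-square per degree of freedom of at least 3.04), which does not show that they were separate cultures.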

Additional observations from a re-analysis of the deposited data

How the results depend on the processing

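The differences of the summed level moved by less than 1 SD of the residuals (1.40 on the log2 scale) under share of all reads, RLE factors, scaling by miR-103-3p and miR-191-5p, scaling by the reads off the hairpins, pseudocounts of 0.5 and 2, the ratio of mean CPM, terms for title numbers, mature rows added, each replicate left out and the 4 low samples left out, apart from the exceptions among title numbers 28 to 39, where CBD against Ctrl was -4.17, THC against Ctrl -0.33 and CBD_LPS against Ctrl -0.83. With such a spread this says little of direction. Leaving out 1 replicate gave -3.10 to -0.93 for CBD, -0.59 to 1.58 for LPS, -0.12 to 2.05 for THC, -0.64 to 1.53 for CBD_LPS and -1.15 to 1.10 for THC_LPS against Ctrl, and -0.24 to 0.19 for CBD_LPS and -1.10 to 0.39 for THC_LPS against LPS.

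Of the 3 hairpins, 0 were called under filterByExpr, at least 1 read, edgeR and DESeq2 in all 7 comparisons. Of all features, filterByExpr called 0 to 16 in a comparison and at least 1 read called 5 to 29. Both change how many features are tested, so their counts are not on the same base as the others. The shares called by the other settings that called a hairpin, and by edgeR and DESeq2, are given above. With title numbers 28 to 39, 3 were called in CBD and 1 in CBD_LPS against Ctrl, and with 1 replicate left out 0 to 3 in CBD against Ctrl. Counts of all called features moved over 1.5 times as follows. CBD against Ctrl went from 22 to 9 (filterByExpr), 14 (DESeq2), 153 (numbers 28 to 39) and 15 to 61 with 1 replicate left out. LPS went from 21 to 37 and CBD_LPS from 19 to 53 with numbers 28 to 39. THC went from 6 to 0 (filterByExpr and DESeq2), 2 (edgeR) and 13 (numbers 28 to 39). THC_LPS against Ctrl went from 25 to 16 (filterByExpr), 15 (DESeq2) and 12 to 20 with 1 replicate left out. Against LPS, CBD_LPS went from 3 to 7 (at least 1 read), 5 (DESeq2) and 1 to 6 with 1 replicate left out, and THC_LPS from 3 to 1 (filterByExpr and DESeq2), 5 (at least 1 read) and 1 to 3. The cause of these shifts was not tested.

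The relation to detected features had r = 0.584 without the samples farthest from the median. With title numbers 28 to 39, or the share in place of its log2, no relation changed its side of the threshold. Of the 8 rows most alike, 3 were also among the 8 by Spearman's rho and 6 among the 8 with at least 1000 reads. The numbers 28 to 39 (for calls), the calls with 1 replicate left out and the 4 low samples were chosen as alternatives after the data were seen. No paired analysis was possible because each title number is used once and no label says that a run of numbers shares a culture, day or batch. As each of the 3 runs holds 1 sample of every group, a term for the runs left the differences of the summed level as they were, with an SE of 1.23 in place of 1.15.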

Other observations

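The 4 rows least alike the 3 hairpins were mature miRNAs, with Pearson's r over the 18 samples of -0.733 for miR-3096b-5p, -0.676 for miR-1946b, -0.665 for let-7d-3p and -0.658 for miR-1981-5p. Per 1000000 reads off the 6 rows of the 3 miRNAs, miR-3096b-5p stood at 491 in Ctrl_22, 294 in THC_LPS_27, 240 in CBD_30 and 173 in CBD_36, and at 89.4 to 170 in the other samples. Within the 14 samples above the gap the correlation was 0.20 for miR-3096b-5p and 0.30 for miR-1981-5p, and -0.14 for miR-1946b and -0.29 for let-7d-3p.

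The 3 hairpins were not the only entries with few mature reads. Among the other miRNAs with at least 1000 reads, mir-6361 had 2664 hairpin and 0 mature reads, mir-5103 had 181778 and 3, and mir-5105 had 159902 and 1009. mir-5105 ranged from 0.281% to 2.11% of reads over the samples, 7.49-fold, and mir-5103 from 0.9985% to 1.91%, 1.91-fold. mir-5109, with 5.61% of its reads on the mature row, ranged 7.14-fold. A low mature part thus went with a wide range in the 3 hairpins and, to a smaller extent, in mir-5105 and mir-5109. It did not in mir-5103.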
